A study of Danio rerio with 8 samples.

Results

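On 2 of 8 zebrafish liver arrays the signal of *nr1d1* lay far below that of the other 6, and these 2 livers are described here against the others. *nr1d1* encodes REV-ERB alpha, a heme-binding nuclear receptor that represses transcription. The members were chosen by a measured value, a log2 signal of *nr1d1* under 7 on the brightest transcript cluster of the gene, and by nothing in the labels. Both low arrays came from fish given oligo-fucoidan (OF), an extract of brown seaweed, 1 in each of 2 batches. Across 23697 genes, each read from its brightest cluster, 1632 (6.89%) lay below all 3 other arrays of the batch in both batches and 1755 (7.41%) lay above them in both batches. Over all 59300 clusters, named or not, the shares were 6.23% and 7.56%.

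The fish were adult AB zebrafish, and whole liver was taken after OF at 300 mg/kg by gavage, 3 times a week for 1 month, or after no treatment (mock). Each batch held 2 control arrays and 2 OF arrays. The labels give an age of 6 months for all fish, no sex, and no statement of whether an array held 1 liver or several. No source used here gives the hour at which each liver was taken. Because both low arrays are OF arrays, low *nr1d1* is nested within OF, and no array shows low *nr1d1* without OF. Replicates are arrays that the labels number as separate samples. The paper's figure legends describe its array values as averages over 2 fish of a batch, so the 2 arrays of a group are taken as 2 fish. The spread between them then includes differences between fish, and may also be in part technical.

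In the vertebrate clock, CLOCK and BMAL proteins switch on the *per* and *cry* genes, whose products then block CLOCK and BMAL. A second loop runs through REV-ERB receptors, which repress the *bmal1* genes and which CLOCK and BMAL also switch on. PAR bZIP factors (DBP, TEF, HLF) carry the rhythm to liver genes of metabolism, and in zebrafish, light also acts directly on the clocks of peripheral organs.

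The arrays carried strong liver signal. The mean log2 signal of 26 hepatocyte markers lay between 9.49 and 11.13 on every array, where the upper quartile over all clusters was 3.83 to 4.96. Of these 26 markers, 1 was lower on both low arrays (*pah*) and 1 was higher (*cps1*, whose signal of 1.67 to 2.15 lay near the array median of 2.11 to 2.63). Replicate arrays of a group correlated at 0.929 to 0.964 over all clusters.

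In batch 1 the log2 signal of *nr1d1* was 9.10 and 7.91 in the controls, 3.84 on the low OF array and 8.26 on the other OF array. In batch 2 it was 8.90 and 9.24 in the controls, 5.84 on the low OF array and 8.51 on the other OF array. The highest value under the threshold was thus 5.84 and the lowest value over it 7.91. The 6 other arrays averaged 8.65 ± 0.51 (SD, n = 6), and the mean of the other 3 arrays exceeded the low array 24.0-fold in batch 1 and 8.24-fold in batch 2. These values chose the arrays and are given as a description. In the comparison that the labels give, OF against control, *nr1d1* differed by −2.18 on the log2 scale and did not pass (adjusted p = 0.955, limma, batch as a term). The other OF array lay between the controls in batch 1 and 0.39 under the lower control in batch 2.

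Most clock repressors were low together with *nr1d1*. Of 16 measured, 9 (56.2%) were lower on both low arrays and 1 (6.25%), *cry4*, was higher. Over all genes 6.89% were lower and 7.41% higher. The median difference was −1.11, beside −0.01 over all genes. *per1a*, a period gene, had log2 signals of 6.07 and 5.73 in the batch 1 controls, 2.71 on the low array and 6.36 on the other OF array. In batch 2 these were 5.94, 6.67, 3.21 and 5.86. Each low array lay more than 2 log2 units under all the others of its batch, and the fitted difference was −3.14 (SE 0.27), or 8.83-fold, with an OF difference of −1.57 that did not pass (adjusted p = 0.955 in limma). A second cluster of *per1a* was also lower in both batches (difference −2.87).

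*per3* had signals of 8.54, 8.34, 6.04 and 8.55 in batch 1 (controls, low array, other OF array) and of 8.77, 8.61, 7.47 and 9.03 in batch 2. In the same order, *per1b* had 7.10, 6.24, 4.54 and 6.83, then 7.70, 7.28, 5.98 and 7.05. The low array was the lowest of its batch for both period genes, 3.70-fold under the others for *per3* and 3.41-fold for *per1b*. *per2*, the period gene that light induces in zebrafish, differed less. Its signals were 6.28, 5.94, 5.77 and 6.61 in batch 1 and 6.69, 6.54, 5.32 and 6.10 in batch 2, so that the low array of batch 1 stood only 0.17 under the nearest control.

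Among the cryptochromes, which act with the period proteins, *cry1a* was lower by a fitted 1.05 (2.08-fold) and *cry1b* by 1.18 (2.26-fold). *cry4* was 2.60-fold higher, at 4.36 against 2.71 to 3.49 in batch 1 and 5.44 against 3.92 to 4.17 in batch 2. *cry2*, *cry3a* and *cry3b* lay inside the range of the other arrays in at least 1 batch. Of the further repressors, *bhlhe41* (a DEC factor) was 4.37-fold lower, *ciartb* 2.93-fold and *cipcb* 2.38-fold. For *bhlhe41* the other OF array of batch 2, at 3.67, lay nearly as low as the low array at 3.02. The controls of that batch stood at 6.54 and 6.14. The plot by array shows 12 clock genes, all taken from those lower or higher on both low arrays. By that choice the low arrays are at the bottom of their batch in 9 panels and at the top in 3. The 26 of 45 clock genes that were neither are not drawn.

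**Figure D1:**
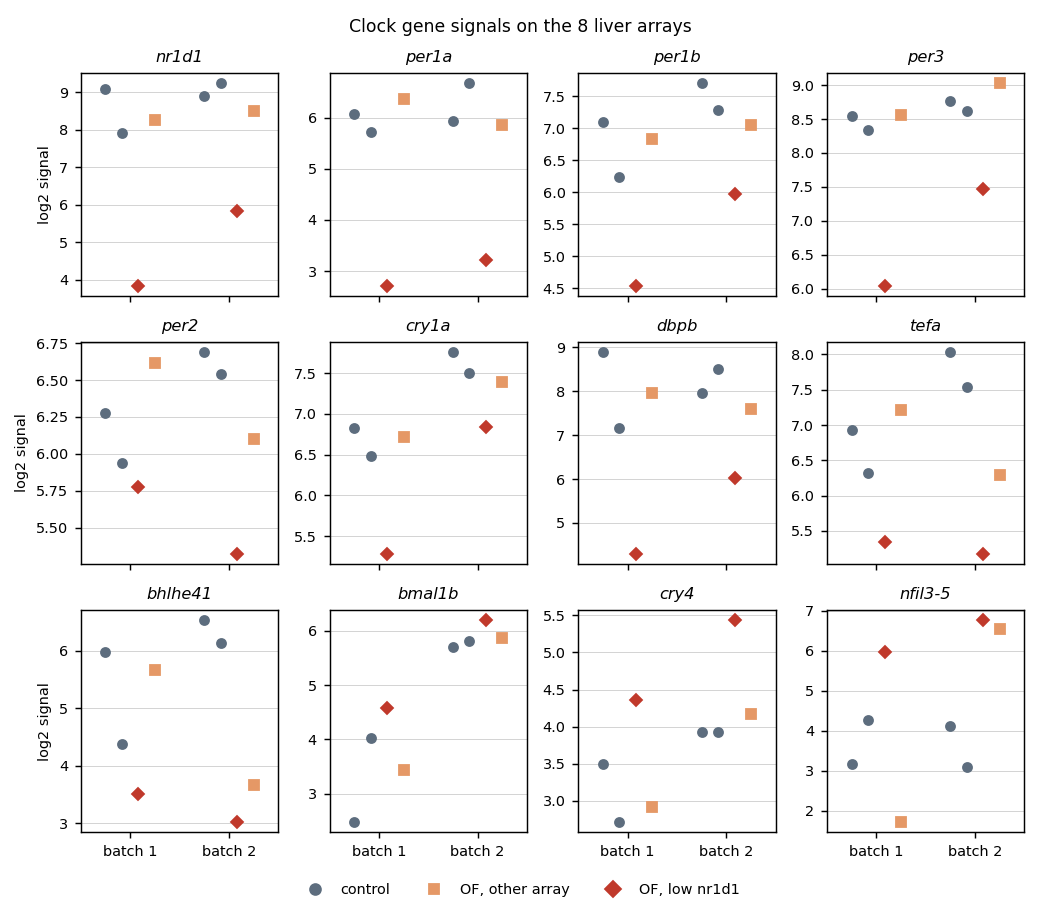
Log2 signal (vertical axis, own scale in each panel) of 12 clock genes on each of the 8 arrays, by batch, with controls as circles, other OF arrays as squares and the low-*nr1d1* OF arrays as diamonds. Only genes lower or higher on both low arrays are drawn. From *nr1d1* to *bhlhe41* the diamond is the lowest point of its batch, and for *bmal1b*, *cry4* and *nfil3-5* it is the highest.

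Of 12 factors of the PAR bZIP and NFIL3 families, 4 were lower (33.3%, beside 6.89% over all genes), *dbpa*, *dbpb*, *tefa* and *tefb*. Higher was 1 (8.33%, beside 7.41%), *nfil3-5*. The HLF genes were not among them. *hlfa* was below the others in batch 1 (7.32 against 8.13 to 8.91) but within them in batch 2 (9.21 against 8.64 to 9.63), and *hlfb* was near the array median throughout. *dbpb* had signals of 8.90 and 7.17 in the batch 1 controls, 4.29 on the low array and 7.96 on the other OF array, and 7.95, 8.50, 6.03 and 7.60 in batch 2. It was 7.23-fold lower (difference −2.85, SE 0.55), and the groups did not overlap in either batch. *tefa*, which in zebrafish responds to light, was 3.48-fold lower and *dbpa* 2.55-fold, while *tefb* cleared the nearest array by only 0.06. *nfil3-5*, of the family of repressors that share binding sites with the PAR bZIP factors, read 5.96 on the low array of batch 1 against 1.71 to 4.26. In batch 2 it read 6.77, and the other OF array at 6.54 stood nearly as high, above controls of 4.12 and 3.10.

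The activators did not follow this course. Of 6 measured, 0 were lower and 1 was higher (16.7%, beside 7.41% over all genes). This was *bmal1b*, with signals of 2.47, 4.02, 4.57 and 3.43 in batch 1 and 5.70, 5.82, 6.20 and 5.87 in batch 2. Its excess over the nearest array was 0.55 in batch 1 and 0.33 in batch 2, and its fitted difference was 0.83 (SE 0.40). *bmal1a* was above the others in batch 1 (4.80 against 1.52 to 3.40) but within them in batch 2 (5.34 against 4.61 to 5.96). *clocka*, *clockb*, *npas2* and *bmal2* were not outside the same way in both batches. For *bmal2* this holds for the brightest of its 4 clusters. Another of them was higher in both batches (difference 1.76, at a mean signal of 2.94), and the rest were neither.

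The other REV-ERB and ROR receptors mostly overlapped. Of 11 measured, 3 were lower, where 6.89% of all genes were. *nr1d1* is among the 3 because the choice of arrays fixed it to be lower. The others were *rorab* (by 0.09 at its smaller margin) and *rorb* (signals of 1.25 to 2.1, near the array median). *nr1d2a* and *nr1d2b*, the zebrafish genes of REV-ERB beta, were at 6.61 and 5.43 on the low array of batch 1 and at 8.90 and 7.31 on that of batch 2. For *nr1d2b* the controls and the other OF array of batch 1 lay at 6.80 to 6.94, above the low array, whereas in batch 2 they lay at 7.11 to 7.89, around it. Among 13 clock kinases and ubiquitin ligases, 0 were lower and 0 higher in both batches, and among 15 genes of REV-ERB corepressors and heme handling, also 0 and 0.

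Over the 4 clock lists, 45 genes were measured, of which 16 were lower, 3 higher and 26 neither. One of the 16 is *nr1d1*, which the choice of arrays fixed to be lower. Without it 15 of 44 were lower (34.1%, beside 6.89% over all genes). With a mean log2 signal of at least 5, 13 of 28 other than *nr1d1* were lower and 0 higher, where 626 of 7378 genes of that signal were lower (8.48%) and 284 higher (3.85%). In OF against control, 0 of the 45 passed an adjusted p under 0.05 in limma and 4 had an unadjusted p under 0.05. Over all 23697 genes 1281 had such an unadjusted p in this comparison. That comparison shares the 2 low arrays. Of 9 genes of the list of light-induced genes and DNA repair, 5 were lower (55.6%, beside 6.89% over all genes). Of these, 3 (*per2*, *tefa*, *cry1a*) are also clock members. The others were *lonrf1*, 3.58-fold lower and lower on all 3 of its clusters, and *cry5*, the light-driven DNA photolyase, 3.02-fold lower. For *cry5* the low arrays read 2.1 and 2.22, near the array median. Its other OF array of batch 2, at 2.8, was also under the controls at 4.5 and 4.1.

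Lower genes outside the clock included enzymes and carriers of amino acids. Of 15 lower genes with the largest margins (at least 1.16 in both batches), *nr1d1* stood at rank 2. The choice of arrays by its signal favoured that place, so its rank is no separate result. Ahead of it was *si:ch211-132b12.7*, a gene with no described role in the files. Its signals were 9.40, 8.28, 5.39 and 9.26 in batch 1 and 8.86, 9.06, 5.62 and 8.71 in batch 2. It was 10.8-fold lower. The 5 genes most like *nr1d1* were *dbpb*, *si:ch211-132b12.7*, *per1b*, *cry1a* and *per1a*, at r of 0.97 to 0.98. Pearson r is taken here over 8 arrays after centring each batch, and rests mainly on the 2 low arrays. The 5 least like, at −0.95 to −0.98, were *nfyal* (related to the NF-Y alpha subunit), *maco1a*, *uri1*, *plekha1a* and *mier1b*, all higher on both low arrays by a fitted 0.41 to 1.2.

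*slc25a29*, a mitochondrial carrier of basic amino acids, had signals of 8.31, 7.00, 4.37 and 6.74 in batch 1 and 6.33, 7.13, 4.45 and 7.23 in batch 2. It was 6.58-fold lower, with a gap of at least 1.88 to the nearest array. *mat2ab*, which makes S-adenosylmethionine from methionine, read 3.18 against 4.66 to 7.07 and 4.36 against 6.42 to 9.01. *ppm1ka*, whose mammalian counterpart activates the complex that degrades branched-chain keto acids, read 4.60 against 7.07 to 8.24 and 6.20 against 7.36 to 7.58. *bckdk*, the kinase that switches that complex off, was among the higher genes, at 8.01 against 6.28 to 7.39 and 9.33 against 7.58 to 8.34. For all 4 the low array stood outside its batch, which the choice of these genes fixed. *bckdk* was named after its values were seen.

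Of 68 enzymes of amino acid breakdown 12 were lower (17.6%) and 4 higher, with a median difference of −0.55. Of 51 amino acid transporters 11 were lower (21.6%) and 2 higher, where 6.89% of all genes were lower. On the other OF array of batch 1 the list means were nearly as low as on the low array. For the enzymes they were 7.27 and 7.06, against 8.20 and 7.91 in the controls. For the transporters they were 3.94 and 3.73, against 4.51 and 4.39. In batch 2 the low array had the lowest means, at 8.07 against 8.48 to 8.82 and 4.49 against 4.79 to 5.04. Both lists were drawn up after the values had been seen. *tat*, tyrosine aminotransferase, was 2.41-fold lower and *pah*, phenylalanine hydroxylase, 4.12-fold. *agxtb*, an alanine-glyoxylate aminotransferase, read 7.93 against 9.59 to 11.86 and 9.43 against 10.41 to 12.03. Among transporters of the cell surface, *slc16a10* (aromatic amino acids) was 4.14-fold lower, *slc38a3b* (glutamine family) 4.48-fold, and *slc38a2* lay at 6.79 against 7.72 to 9.10 and at 7.78 against 9.67 to 9.71.

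*ppargc1a*, the coactivator PGC-1 alpha that drives mitochondrial and fasting genes, had signals of 7.72, 5.70, 4.21 and 5.91 in batch 1 and 7.33, 6.83, 4.87 and 7.75 in batch 2. *pparab*, a PPAR alpha receptor for fatty acids, had 9.11, 8.72, 6.33 and 7.46, then 9.61, 9.29, 7.72 and 9.22. Both were lowest on the low array, 5.03-fold and 3.67-fold under the others, although a second cluster of *pparab* was not. They were the 2 lower genes among 27 of fatty acid oxidation and fasting, a share of 7.41% near the 6.89% over all genes, beside 0 higher. Among 20 genes of gluconeogenesis and glucose 3 were lower (15%, *tat*, *g6pc1a.1*, *pck2*), with a median of −0.98. *pck2* cleared the other OF array of batch 1 by less than 0.01.

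Of 17 genes of the glucocorticoid response 4 were lower (23.5%, beside 6.89% over all genes) and 0 higher. The list as a whole was not low on both low arrays. Its mean was 8.30 and 8.59 in the batch 1 controls, 6.72 on the low array and 7.06 on the other OF array. In batch 2 these were 7.89, 8.08, 7.95 and 9.08, so the low array lay between the controls. *klf9*, a factor that glucocorticoids induce, read 6.23 against 8.87 to 9.74 in batch 1 and 8.45 against 9.26 to 10.12 in batch 2, 4.53-fold lower. The steroid dehydrogenase *hsd20b2* was 2.78-fold lower, and *tat* and *cebpd* completed the 4. Lipid building genes did not follow. Among 19 genes of fatty acid synthesis 0 were lower and 1 higher, among 25 of sterol synthesis 0 and 1, and among 12 of bile acid synthesis and transport 0 and 0. Of 25 genes of families that REV-ERB represses or acts on in mammalian liver, 2 were lower (*ppargc1a*, *g6pc1a.1*) and 2 higher (*bmal1b*, *nfil3-5*), shares of 8% each, near those over all genes.

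The remaining lower genes with large margins had varied roles. *si:dkey-18a10.3*, with no described role, read 1.82 against 8.66 to 8.86 in batch 1 and 5.96 against 7.60 to 8.45 in batch 2. *loxl2a*, a lysyl oxidase that crosslinks collagen, was singled out by the study on these same arrays. The paper also reports it as downregulated by qPCR, in the array samples and over all fish. Its signals were 10.15, 8.83, 3.28 and 5.44 in batch 1 and 4.35, 6.78, 2.66 and 5.07 in batch 2. Here the other OF array of batch 1 also lay well under both controls, and a second cluster was not lower in both batches. *cyp46a1.3*, of a family of cholesterol hydroxylases, was 10.6-fold lower, with other arrays of batch 2 as far apart as 3.67 and 8.28. *gltpd2b*, *gstt2* (a glutathione transferase), *cdab* (cytidine deaminase) and *si:ch73-335l21.1*, which the files describe as insulin receptor substrate 1-B, were 2.94- to 4.77-fold lower.

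**Figure D2:**
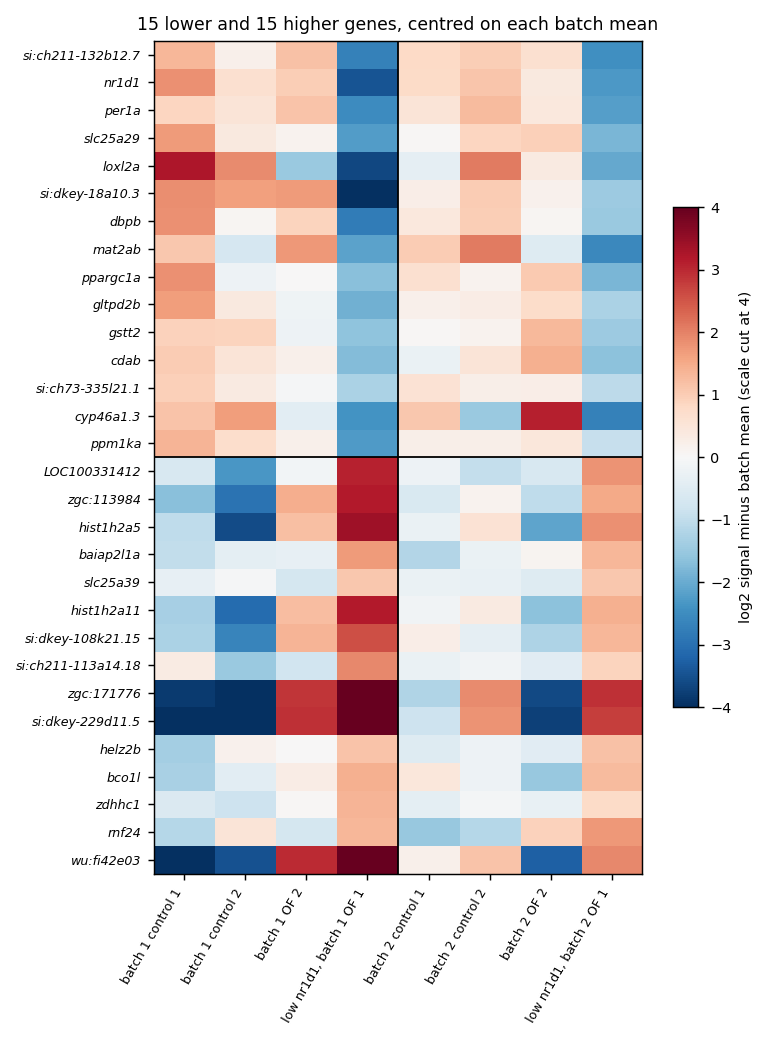
Log2 signal minus the batch mean (colour, scale cut at 4) of the 15 lower genes and the 15 higher genes with the largest margins (rows), on the 8 arrays (columns, the low-*nr1d1* array last in each batch). Most of the lower genes are fairly even over the other arrays, with *loxl2a*, *mat2ab* and *cyp46a1.3* as exceptions, whereas several of the higher genes are also high on the other OF array of batch 1 and on control replicate 2 of batch 2.

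The higher genes included transcripts of histones, of the cell cycle and of the ovary. The 15 with the largest margins (at least 0.78) included 3 histone genes. The signal filter took the mean over all 8 arrays, and 8 of these 15, like 56 of all 284 higher genes of that signal, averaged under 5 on the 6 other arrays and passed only through the low arrays. Of all histone genes, 15 of 48 were higher (31.2%, beside 7.41% over all genes) and 3 lower, on a list drawn up after the values had been seen. In batch 1 the list mean was 6.37 on the low array against 3.39 to 5.34. In batch 2 it was 4.98 on the low array and 4.96 on control replicate 2. There the summed log2 signal was 12.84 on the low array, under the 12.98 of that control. Histone genes are near-identical copies, so their clusters may share probes or transcripts. *LOC100331412*, a histone H4 gene, had signals of 4.71, 3.03, 8.45 and 5.26 in batch 1 and 4.44, 3.71, 6.45 and 4.0 in batch 2. It was 9.55-fold higher, with a gap of at least 2.00 to the nearest array. *hist1h2a5* read 9.84 and 7.38 on the low arrays, but the other OF array of batch 1 stood at 7.64, far above its controls at 5.45 and 2.88.

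Cell cycle genes were in part higher, 11 of 34 (32.4%, beside 7.41% over all genes) with 2 lower, most of them at low signal. With a mean log2 signal of at least 5, 2 of 7 were higher, and the median difference was −0.02. The list as a whole was not highest on both low arrays. In batch 1 its mean was 5.85 on the low array against 2.82 to 4.29. In batch 2 it was 4.325, beside 4.335 on control replicate 2, and the summed log2 signal was 10.39 against 10.4 and 10.77 in the controls. *rrm2l*, a ribonucleotide reductase subunit, read 8.92 against 2.45 to 6.07 and 5.57 against 1.34 to 3.78, although its second cluster was not higher in batch 2. *top2a*, a DNA topoisomerase of dividing cells, read 6.89 against 2.03 to 4.48 and 3.28 against 1.76 to 2.25. *ccna2*, cyclin A2, read 8.57 against 1.57 to 6.70 and 6.45 against 2.14 to 5.75. All 3 were also above both controls on the other OF array of batch 1.

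Ovary RNA moved with these higher genes. Of 19 ovary and germ line markers 10 were higher (52.6%, beside 7.41% over all genes) and 0 lower. Among the higher were *zp3a.1* (an egg envelope protein), *zar1*, *dazl*, *ddx4*, *cldnd* and *figla*. The mean log2 signal of the 19 was 1.90 and 1.97 in the batch 1 controls, 7.40 on the low array and 5.43 on the other OF array. In batch 2 it was 3.01, 3.92, 4.11 and 2.02. The low array was the highest in both batches. Its log2 summed signal was 12.48 against 6.20 to 10.55 on the others of batch 1, and 9.12 against 6.39 to 8.80 in batch 2. In batch 2 its lead over control replicate 2 was small, with means of 4.11 and 3.92. Only 2 of the 19 markers had a mean signal of at least 5. In whole tissue, more cells of a type and more RNA per cell cannot be told apart.

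Estrogen-responsive genes, among them the vitellogenins, followed another division. Their mean was 2.23 and 2.37 in the batch 1 controls against 8.73 on the low array and 9.16 on the other OF array, and 8.74, 8.93, 9.19 and 2.39 in batch 2. In each batch the low array was thus among the arrays with high estrogen-responsive signal, together with the other OF array in batch 1 and both controls in batch 2. Of 14 such genes 2 were higher in both batches (14.3%, beside 7.41% over all genes), *zp3a.1* and *zp3b*. Both are egg envelope genes that are also on the ovary and germ line list.

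Among the 15 higher genes the widest fitted differences, 4.28 to 5.40, were those of *zgc:171776*, *si:dkey-229d11.5* and *wu:fi42e03*, for which the files give no role. All 3 were also high on the other OF array of batch 1 (8.34 to 8.81, against 1.18 to 2.34 in its controls). A second cluster of *zgc:171776* and 1 further cluster of *wu:fi42e03* were not higher in batch 2. There control replicate 2 read 6.70 and 6.89, above the low array at 6.25 and 6.02. Another cluster of *wu:fi42e03* and the other cluster of *si:dkey-229d11.5* were higher in both batches. The plot of list means by array shows how the histone mean followed the ovary mean.

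**Figure D3:**
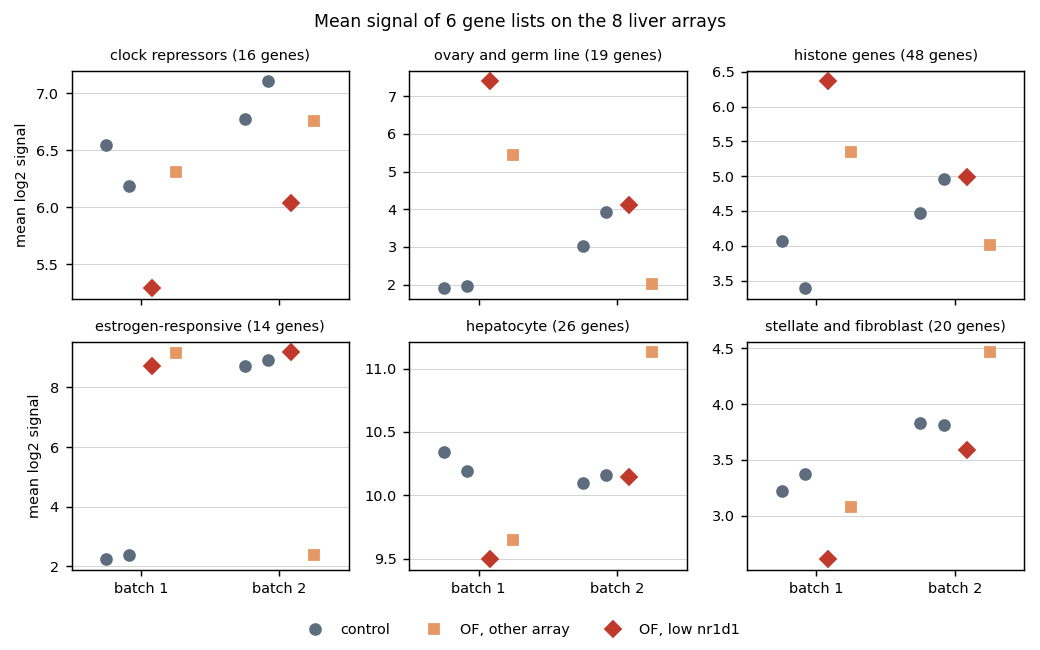
Mean log2 signal (vertical axis, own scale in each panel) of 6 gene lists on the 8 arrays, by batch and group. The low-*nr1d1* array (diamond) is the lowest of its batch for clock repressors and the highest for ovary markers, while for estrogen-responsive genes it sits with 1 other array in batch 1 and with 2 in batch 2.

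With the ovary mean as a further term beside batch, the median difference of the 15 higher genes went from 2.60 to 0.88, and that of the 14 lower genes other than *nr1d1* from −2.79 to −1.81. The median of the 15 lower clock genes other than *nr1d1* was −1.35 without the term and −1.27 with it, and all 15 kept their sign. For *per1a* the difference was −3.41 (SE 0.36) with the term, whereas for *dbpa* it went from −1.35 to −0.60 and for *cry1b* from −1.18 to −0.43. The metabolic genes differed among themselves. *tat* stayed at −1.27 and *ppargc1a* was at −1.82, while *agxtb* went from −2.28 to −0.72, *pah* from −2.04 to −0.84 and *g6pc1a.1* from −1.55 to 0.04. With the mean of the estrogen-responsive list as the term, the medians were 1.82 for the 15 higher genes, −2.25 for the 14 lower and −1.48 for the 15 clock genes. All these genes were chosen on the same arrays, so the values are a description. Both terms were chosen after the values had been seen and are partly shared with low *nr1d1*. They rest on lists that share egg envelope genes, *zp3a.1* and *zp3b* among them. The part of ovary RNA in each difference was thus not tested beyond these fits.

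Other higher genes included *slc25a39*, a mitochondrial carrier that imports glutathione, at 7.57 against 5.79 to 6.46 in batch 1 and 7.32 against 5.75 to 6.01 in batch 2. *baiap2l1a*, a membrane-bending actin regulator, read 7.25 against 4.58 to 5.23 and 6.17 against 3.68 to 4.95. Neither overlapped the other arrays, which the choice of these genes fixed. With the ovary term their differences were 1.62 (SE 0.26) and 1.81 (SE 0.49), from 1.43 and 2.02. *rnf24*, a ring finger protein, and *helz2b*, a helicase, were 4.10-fold and 2.92-fold higher.

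Markers of other cells in the liver were partly lower. Over all genes 6.89% were lower and 7.41% higher. Of 20 stellate cell and fibroblast markers 6 were lower (30%) and 0 higher. They were led by *acta2*, smooth muscle actin, at 2.60 against 3.64 to 5.12 and 2.76 against 4.71 to 5.35. The list's mean was 2.61 and 3.59 on the low arrays and 3.07 to 4.47 on the others, and the low array was the lowest of its batch. Of 18 biliary markers 5 were lower (27.8%, *krt4*, *krt8*, *krt18a.1*, *anxa4*, *cftr*) and 0 higher, and of 19 endothelial markers 3 (15.8%) and 0. Many of these markers were at low signal. A mean signal of at least 5 was reached by 2 stellate markers (1 lower), 6 endothelial (1 lower) and 11 biliary (3 lower). Of all genes of that signal 8.48% were lower. The part of these cells in the differences of other genes was not tested. Blood cell lists showed 1 lower of 15 (erythrocyte, 6.67%) and 3 lower with 2 higher of 19 (lymphocyte, 15.8% and 10.5%). The macrophage list had 1 each way of 21 (4.76%), and the exocrine pancreas list 1 each way of 22 (4.55%). Of 11 neutrophil markers 0 were lower and 1 higher (9.09%), *lect2.1*, a chemotaxin, and 14 gut markers gave 1 each way (7.14%). Of the stress lists, 5 of 31 immediate early genes were lower (16.1%, among them *jund* and *junba*) and 1 higher (*mych*). Of 24 heat shock genes 1 was lower (4.17%, *bag3*), and 29 genes of the endoplasmic reticulum gave 1 each way (3.45%).

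**Figure D4:**
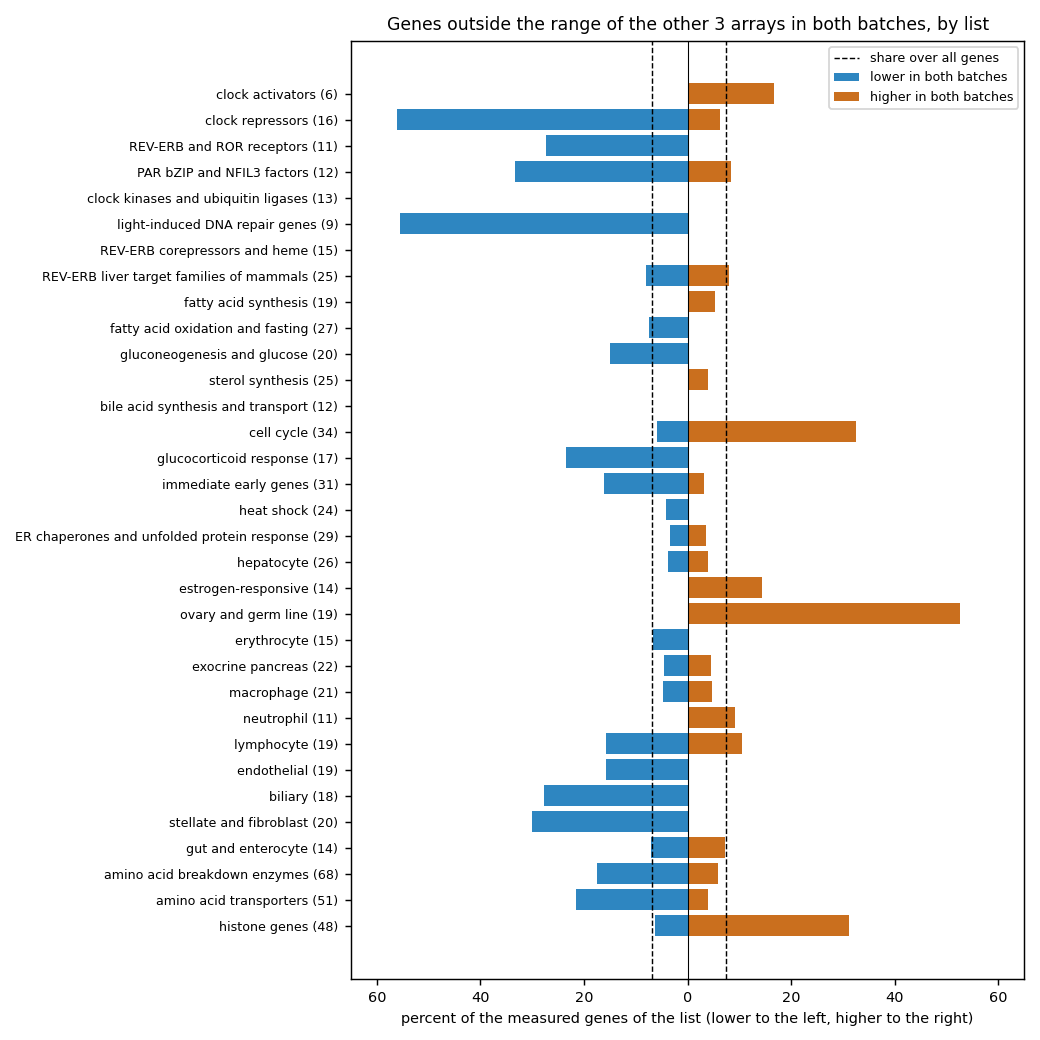
Percent of the measured genes of each list (number in brackets) that lay below (left) or above (right) all 3 other arrays of the batch in both batches. Dashed lines mark the shares over all 23697 genes, 6.89% lower and 7.41% higher, and clock repressors (56.2% lower) and ovary markers (52.6% higher) reach farthest on either side.

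Across all genes the differences of the 2 batches were only weakly related. In batch 1 the low array lay below all 3 others for 30.0% of genes and above them for 31.4%, and in batch 2 for 23.1% and 22.7%. A further 3245 genes lay outside on opposite sides in the 2 batches, close in number to the 3387 outside the same way. With a signal of at least 5, 1055 lay outside on opposite sides, more than the 910 outside the same way. Over the 7378 genes of signal at least 5, the differences of the 2 batches correlated at r = 0.07 across genes, which are not independent. Many members stood barely outside, as 768 of the lower and 672 of the higher genes had a smaller margin under 0.1. Margins of at least 0.5 in both batches were met by 100 lower genes (1.36%) and 38 higher genes (0.515%) of that signal. Margins of at least 1 in both batches were met by 25 lower genes (0.339%) and 9 higher genes (0.122%).

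**Figure D5:**
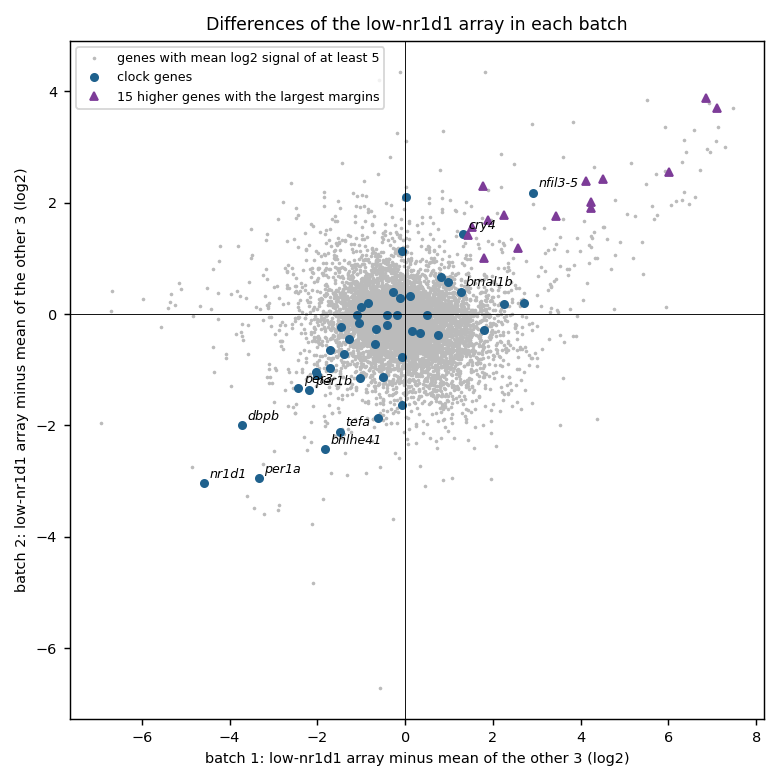
Difference between the low-*nr1d1* array and the mean of the other 3 arrays in batch 1 (horizontal axis, log2) and batch 2 (vertical axis, log2), for genes with a mean log2 signal of at least 5 (grey), all clock genes (circles) and the 15 higher genes (triangles). The 2 differences are weakly related (r = 0.07) and spread more widely in batch 1 (SD over genes 1.17) than in batch 2 (0.70). *nr1d1*, *per1a* and *dbpb* lie far to the lower left and the triangles to the upper right. The choice of arrays fixed the side of *nr1d1*, and the choice of the 15 higher genes fixed that of the triangles.

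In OF against control over all 8 arrays, 0 of 59300 clusters passed an adjusted p under 0.05 in either direction (limma, lowest adjusted p 0.955), and 1224 higher (2.06%) and 1438 lower (2.42%) had an unadjusted p under 0.05. Of the 626 lower genes of signal at least 5, 118 had such an unadjusted p, and of the 284 higher genes 54. These counts share the low arrays with the choice of the genes.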

How the data were processed

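Liver RNA was measured on ZebGene 1.1 ST arrays. Normalization and summary per transcript cluster were done by the authors in the Transcriptome Analysis Console, using GC count normalization and signal space transformation, and the deposited values are log2 signals. The authors also deposited worksheets with linear intensity averages and log2 averages of each group, and with their own fold changes and p-values. The worksheets served here for gene names and to check the averages, and the authors' comparisons were not used. The sources used here give no genome build.

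Of 75212 clusters, the 59384 in the worksheets were taken and 84 control clusters left out, so that 59300 were fitted. A single worksheet symbol named 24582 and a RefSeq accession 5643, with symbols updated through a GRCz12tu gene table. The 1195 clusters of several genes and 27880 without a name were not named. Each of 23697 genes is given by its brightest cluster. Depth does not apply to arrays, and the number of arrays limits the precision. Differences between the low-*nr1d1* arrays and the others come from limma 3.58.1 in R 4.3.3 with batch as a term, without p-values, because a measured value chose the arrays. OF against control was tested by limma (eBayes, two-sided) with Benjamini-Hochberg adjustment over 59300 clusters. The scripts were tested on simulated data, and tables and figures were made in Python 3.11.15.

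Named are the clock genes, the 15 lower and 15 higher genes of signal at least 5 with the largest smaller margin, up to 3 members of each other list, and the 5 genes most and least like *nr1d1*. The members and lists were chosen with earlier results of these data known, and further members (*bckdk*, *slc38a2*, *cebpd*) were named after their values were seen, as were the lists of amino acid enzymes, amino acid transporters and histones. Alternatives were other normalization, clusters, filters, margins and reference arrays. Same-numbered arrays of a batch deviated at r = 0.113 in batch 1 and −0.0727 in batch 2, so the replicate numbers were not used as pairs.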

Additional observations from a re-analysis of the deposited data

Results flagged for a closer look

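In 3 of 198 groups of 4 arrays examined among the named genes, 1 array stood apart from the other 3 by more than 0.829 of the group's range. For 4 like arrays chance gives about 1 in 20. Each group here joined 2 batches, and the OF groups held both low arrays, so the count cannot be set against that share. For *nfil3-5* the ratio was 0.84 among the OF arrays, where the other OF array of batch 1 read 1.71 against 5.96 to 6.77. For *top2a* it was 0.853 among the control arrays, where control replicate 1 of batch 1 read 3.53 against 2.03 to 2.25. For *apoa4b.2*, an apolipoprotein of the gut list, it was 0.831 among the control arrays, where control replicate 1 of batch 1 read 1.59 against 1.04 to 1.13, all near background. The change with OF did not differ between batches past the threshold for any named gene (lowest adjusted p 0.169 in limma), and over all clusters 3 passed, with 8479 at an unadjusted p under 0.05.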

How the results depend on the processing

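The counts of genes outside the range, 1632 lower and 1755 higher, were 3692 and 4483 over all clusters, 626 and 284 at a signal of at least 5, and 212 and 56 at a signal of at least 7. They were 144 and 235 with a margin of at least 0.5, 27 and 42 with a margin of at least 1, 2776 and 2847 against the controls alone, and 6179 and 6439 against the other OF array alone. Without 1 of the other arrays they ranged from 1867 to 2338 and from 2009 to 2448, and leaving out a low array gives no count over both batches. With quantile normalization 1439 of the lower and 1438 of the higher genes remained. Of 1209 differences of 99 named genes under alternatives, 5 changed sign, and 0 of 792 did so without 1 array. A further 94 moved by more than 1 SD, 44 of them with the ovary term and 21 without each of the low arrays. With the ovary term *wu:fi42e03* came to −0.49, *g6pc1a.1* to 0.043, *pck2* to 0.34 and *zp3b* to −0.46, and on its other cluster *csf1rb* came to −0.21. Because *zp3b* is itself on the ovary list, its value with that term is no separate result. The cause was not tested. For OF against control 0 clusters passed under every alternative run, with the *nr1d1* signal as a term and with the replicate block too (0 adjusted, 1034 higher and 1198 lower unadjusted). Only 2 low arrays, 1 in each batch, carry every value, and both received OF.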
